A study of Homo sapiens with 6 samples.

Results

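The genes described here are 10 members of the autophagy machinery, and their nascent RNA was followed in HCT116 cells in which the enzyme GSTO1 was silenced or inhibited. ULK1, BECN1, WIPI1, ATG5, ATG7, MAP1LC3B, GABARAPL1, GABARAPL2, SQSTM1 and NBR1 were taken by symbol from the 22984 genes counted on the sense strand, and all 10 were found, each in 1 row. GSTO1 is an atypical glutathione transferase, and HCT116 is an established human colorectal carcinoma line. Nascent RNA was labelled with 2 mM bromouridine for 30 min and sequenced (Bru-seq), so that the values report RNA being made rather than the standing pool.

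Each of 6 cultures gave 1 library. DMSO, the vehicle, was given for 4 h at 0.01% in 2 cultures, siRNA against GSTO1 (siGSTO1) for 24 h at 10 nM, the GSTO1 inhibitor C1-27 at 1 μM for 4 h or for 24 h, and its inactive analogue C1-14 for 4 h at 10 μM. The siRNA time is that of the sample label, whereas a sentence in the study's methods reads as 4 h. Neither a non-targeting siRNA nor a 24 h DMSO culture was analysed here, so the effect of either 24 h treatment cannot be told apart from that of transfection or of time in culture. Sense counts ranged from 18112861 to 36841146 per library. GSTO1 itself was at 3.51 and 3.72 RPKM in the DMSO cultures, 2.70 RPKM after siGSTO1, 3.78 and 4.21 RPKM after C1-27 at 4 h and 24 h, and 3.82 RPKM after C1-14. The epithelial genes EPCAM, KRT8, KRT18 and KRT19 were between 2.57 and 11.9 RPKM, CDH1 and CDX2 were lower, and the intestinal genes CDX1 and VIL1 were at or near 0. Of 10 markers of other cells, 7 stayed at or below 0.0271 RPKM and CD68, COL1A1 and PECAM1 reached 0.569, 0.313 and 0.374 RPKM.

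Autophagy encloses cytoplasm in a double membrane, the autophagosome, which fuses with lysosomes for breakdown. The ULK1 kinase starts the process, the lipid kinase complex built on BECN1 marks the growing membrane, and WIPI1 reads that lipid mark. ATG7 and ATG5 act in the conjugation reactions that attach the small ubiquitin-like proteins MAP1LC3B, GABARAPL1 and GABARAPL2 to the membrane. The receptors SQSTM1 (p62) and NBR1 bind ubiquitinated cargo on one side and these membrane proteins on the other. Several of the genes are known targets of stress-responsive transcription factors, among them NRF2 for SQSTM1 and the TFEB family for several others.

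The promoter sequences of the members were searched for 3 short motifs of such factors, on both strands, in the 300 bases from 250 before to 50 after each start site in RefSeq (GRCh38.p14). The 10 members had 14 such windows. TGACNNNGC, the core of the antioxidant response element bound by NRF2, was present in 1 member, MAP1LC3B, against 16.1% of the 27305 genes with a window. CACGTG, the core of the box bound by the TFEB family, and TGATGNAA, the composite site of C/EBP and ATF factors, were present in 0 of the 10 members, against 8.77% and 4.46% of all genes. A match is a run of letters and not a shown binding site, and the absence of a match applies to these windows only. SQSTM1 has 3 starts in RefSeq, the last of them 14.5 kb downstream of the first. Its counted span of 31690 bp nearly equals the RefSeq span of 31686 bp and so, by its length, holds all of them. The 250 bases upstream of the start are shown for the 4 members that were past 1.4-fold against each DMSO culture after a treatment, with the motif match in capitals.
MAP1LC3B, chr16:87392086-87392335, plus strand: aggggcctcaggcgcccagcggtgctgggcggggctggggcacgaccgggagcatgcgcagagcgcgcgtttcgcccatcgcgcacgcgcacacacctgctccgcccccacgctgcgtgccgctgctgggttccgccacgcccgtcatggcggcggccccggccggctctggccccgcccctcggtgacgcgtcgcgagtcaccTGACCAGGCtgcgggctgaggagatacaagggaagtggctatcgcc
NBR1 (first of 2 starts), chr17:43170159-43170408, plus strand: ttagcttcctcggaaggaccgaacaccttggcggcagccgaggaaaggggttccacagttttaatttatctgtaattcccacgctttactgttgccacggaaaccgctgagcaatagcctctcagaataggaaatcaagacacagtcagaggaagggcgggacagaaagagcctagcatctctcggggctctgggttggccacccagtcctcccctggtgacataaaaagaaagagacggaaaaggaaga
ULK1, chr12:131894372-131894621, plus strand: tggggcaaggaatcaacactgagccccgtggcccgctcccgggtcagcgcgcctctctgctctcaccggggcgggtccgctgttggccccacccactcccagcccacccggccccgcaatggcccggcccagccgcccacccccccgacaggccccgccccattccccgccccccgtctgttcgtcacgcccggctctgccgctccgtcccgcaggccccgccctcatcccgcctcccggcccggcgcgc
GABARAPL1, chr12:10212627-10212876, plus strand: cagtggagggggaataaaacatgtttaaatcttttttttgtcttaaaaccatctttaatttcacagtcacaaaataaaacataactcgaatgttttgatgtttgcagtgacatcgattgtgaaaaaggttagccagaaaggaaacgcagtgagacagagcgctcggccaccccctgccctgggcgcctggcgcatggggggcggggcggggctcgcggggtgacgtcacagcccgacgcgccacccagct
The match in MAP1LC3B, TGACCAGGC, ran from 46 to 38 bases before the start. The other 3 sequences held none of the motifs.

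In the DMSO cultures the members spanned a wide range of nascent RNA. RPKM is the read count scaled to gene length, introns included, and to library size, so that genes of different length can be compared. The mean DMSO level was highest for SQSTM1, at 1.92 ± 0.477 RPKM (SD, n = 2), followed by ATG5 at 1.82 ± 0.265 RPKM and BECN1 at 1.68 ± 0.241 RPKM. ATG7 was at 0.969 ± 0.0853, GABARAPL2 at 0.885 ± 0.227, GABARAPL1 at 0.617 ± 0.0729 and MAP1LC3B at 0.598 ± 0.144 RPKM. WIPI1 and NBR1 were at 0.341 ± 0.0616 and 0.334 ± 0.0355 RPKM, and ULK1 was lowest at 0.0866 ± 0.0456 RPKM. Neighbours in this order had overlapping DMSO values, except at the steps from BECN1 to ATG7, from GABARAPL2 to GABARAPL1, from MAP1LC3B to WIPI1 and from NBR1 to ULK1. Among 21471 genes larger than 300 bp, SQSTM1 was above 87.2% and ULK1 above 44.7%.

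The DMSO cultures themselves differed at several members, which sets the scale for every comparison. The median log2 ratio of culture 2 to culture 1 was -0.27 over the 10 members. The 10 include ULK1, WIPI1 and NBR1, which were below 0.5 RPKM. Of the 7 members with a mean DMSO level above 0.5 RPKM, 3 were at least 1.4-fold lower in culture 2 and 0 were 1.4-fold higher, against 16.3% and 2.84% of the 7825 genes at that level. The ratio of culture 2 to culture 1 was 0.701 for SQSTM1, 0.693 for GABARAPL2 and 0.709 for MAP1LC3B. ULK1, below that level, had a ratio of 0.457, from 63 and 79 counts. Over all 7825 genes the SD of the log2 ratio was 0.388 and its median -0.0770. Fold changes were taken against the mean RPKM of both DMSO cultures, with 1.4-fold as the study's threshold. The study's level filter was a mean RPKM above 0.5, without a statement of the libraries averaged. It was taken here as the mean of treated and control RPKM. The numbers of genes that passed differ from the study's.

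**Figure D1:**
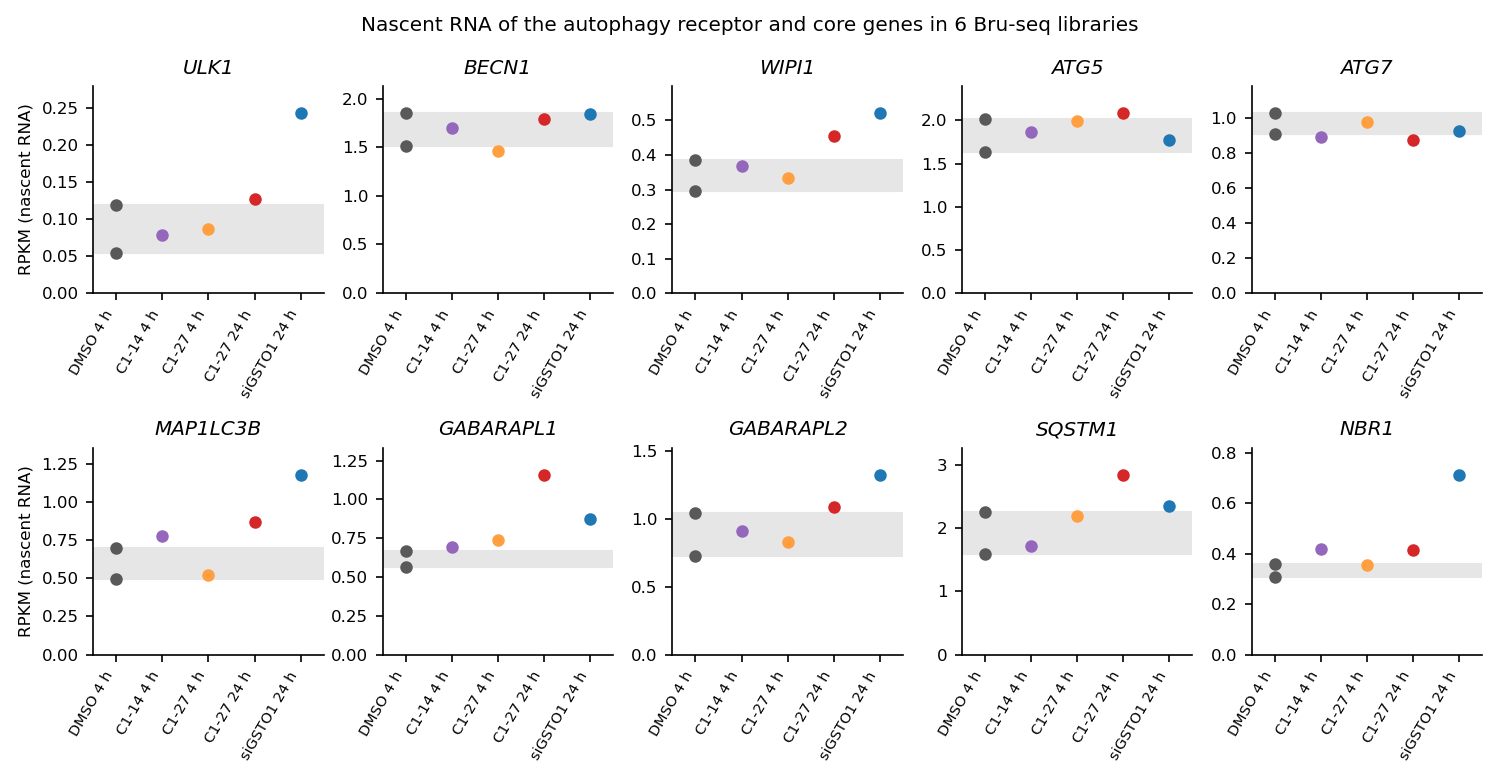
Nascent RNA level (RPKM, linear axes from 0) of each member in the 6 libraries. Each point is 1 culture and the grey band spans both DMSO cultures. After siGSTO1, 7 of 10 members were above the band, where 35.2% of all genes that passed the level filter were above both DMSO cultures. After C1-27 for 24 h, 8 of 10 were, against 36.8%. These counts include ULK1 and WIPI1, and after C1-27 also NBR1, which were below that filter, so count and share do not cover like genes.

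Of the genes of the first steps, ULK1 and WIPI1 were low and BECN1 was among the highest members. ULK1, the initiating kinase (chr12:132379279-132407707, plus strand, in hg19 as are the gene positions that follow), was at 0.119 and 0.0543 RPKM in the DMSO cultures, 0.244 RPKM after siGSTO1, 0.0864 and 0.127 RPKM after C1-27 at 4 h and 24 h, and 0.0781 RPKM after C1-14. The siGSTO1 value lay apart from all the others, and it rested on 182 counts. BECN1, the scaffold of the lipid kinase complex (chr17:40962150-40976310, minus strand), was at 1.85 and 1.51 RPKM in DMSO, 1.84 RPKM after siGSTO1, 1.46 and 1.79 RPKM after C1-27 at 4 h and 24 h, and 1.69 RPKM after C1-14. Its highest and lowest libraries differed by 1.27-fold, and only the C1-27 4 h value lay outside the DMSO pair. WIPI1, the lipid reader (chr17:66417422-66453653, minus strand), was at 0.297 and 0.384 RPKM in DMSO, 0.522 RPKM after siGSTO1, 0.333 and 0.455 RPKM after C1-27 at 4 h and 24 h, and 0.368 RPKM after C1-14. Both 24 h treatments were above both DMSO cultures. WIPI1 also had the largest share of antisense reads, 31.1% of the counts on both strands over the 6 libraries, and it holds the microRNA gene MIR635 on its own strand.

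The conjugation genes were the longest of the group and varied little. ATG5, part of the conjugate that places the ubiquitin-like proteins on the membrane (chr6:106632352-106773695, minus strand), was at 1.64 and 2.01 RPKM in DMSO, 1.77 RPKM after siGSTO1, 2.00 and 2.09 RPKM after C1-27 at 4 h and 24 h, and 1.87 RPKM after C1-14. ATG7, the activating enzyme of both conjugation reactions (chr3:11314010-11599139, plus strand), was at 1.03 and 0.909 RPKM in DMSO, 0.925 RPKM after siGSTO1, 0.975 and 0.875 RPKM after C1-27 at 4 h and 24 h, and 0.892 RPKM after C1-14. With 5411 to 13571 counts for ATG5 and 6866 to 11480 for ATG7, counting error was small. Their highest and lowest libraries differed by 1.27-fold and 1.18-fold. Among the other members only BECN1 varied as little.

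The ubiquitin-like membrane genes were highest after the 24 h treatments. MAP1LC3B (chr16:87425801-87438380, plus strand), the most used marker of autophagosomes, was at 0.700 and 0.497 RPKM in DMSO, 1.18 RPKM after siGSTO1, 0.521 and 0.867 RPKM after C1-27 at 4 h and 24 h, and 0.780 RPKM after C1-14. Only C1-27 at 4 h lay within its DMSO pair. GABARAPL1 (chr12:10365489-10375724, plus strand) was at 0.668 and 0.565 RPKM in DMSO, 0.875 RPKM after siGSTO1, 0.736 and 1.16 RPKM after C1-27 at 4 h and 24 h, and 0.696 RPKM after C1-14. All 4 treated cultures were above its DMSO pair, with C1-27 at 24 h highest. GABARAPL2 (chr16:75600249-75611779, plus strand) was at 1.05 and 0.725 RPKM in DMSO, 1.33 RPKM after siGSTO1, 0.827 and 1.09 RPKM after C1-27 at 4 h and 24 h, and 0.908 RPKM after C1-14. The wide DMSO pair took in both 4 h treatments. The near-identical copies of these genes held few reads. MAP1LC3B2 had 17 to 107 counts per library where MAP1LC3B had 206 to 502, and GABARAPL3 had 0 in every library, so that any misplaced reads of MAP1LC3B remain uncertain.

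The receptors differed in level and in pattern. SQSTM1 (chr5:179233388-179265077, plus strand) was at 2.26 and 1.58 RPKM in DMSO, 2.35 RPKM after siGSTO1, 2.19 and 2.84 RPKM after C1-27 at 4 h and 24 h, and 1.71 RPKM after C1-14. Its highest value was that of C1-27 at 24 h, and siGSTO1 was only just above DMSO culture 1. NBR1 (chr17:41322498-41363707, plus strand) was at 0.359 and 0.309 RPKM in DMSO, 0.713 RPKM after siGSTO1, 0.353 and 0.414 RPKM after C1-27 at 4 h and 24 h, and 0.416 RPKM after C1-14. The siGSTO1 culture stood apart, and the other 5 libraries lay between 0.309 and 0.416 RPKM. SQSTM1 overlaps MGAT4B and C5orf45 on the opposite strand, but its antisense counts were 0.663% of both strands.

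After siGSTO1 for 24 h, 4 of the 8 members that passed the level filter were at least 1.4-fold higher than DMSO and 0 were 1.4-fold lower, against 10.5% and 6.48% of the 8138 genes that passed. The members were chosen with earlier results of these data known. Their counts and medians beside those of all genes, here and below, therefore describe the members and test nothing. NBR1 was 2.14-fold higher, MAP1LC3B 1.97-fold, GABARAPL2 1.5-fold and GABARAPL1 1.42-fold. NBR1 passed the filter only through its siGSTO1 value, so its place among the 4 was tied to its being high. Among the members below the filter, ULK1 was 2.82-fold higher and WIPI1 1.53-fold. SQSTM1 was at 1.23-fold, BECN1 at 1.09-fold, ATG5 at 0.973-fold and ATG7 at 0.954-fold. The median log2 fold change of the 10 members was 0.54, against -0.00072 for all genes that passed. The members' median takes in ULK1 and WIPI1, both below the filter and both high, and so is not on the same footing.

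Against each DMSO culture separately, 3 members were past 1.4-fold, of which ULK1 was below the level filter. The share of all genes past it against each culture was not computed, so the 3 have no share to stand beside. ULK1 was 2.05-fold and 4.49-fold above cultures 1 and 2, NBR1 1.99-fold and 2.31-fold, and MAP1LC3B 1.69-fold and 2.38-fold. For ULK1, the ratio to the pooled DMSO counts was 3.13 with an exact 95% interval of 2.50 to 3.93, which covers counting error only. GABARAPL2 ranged from 1.27-fold to 1.83-fold and GABARAPL1 from 1.31-fold to 1.55-fold. In all, 7 of 10 members were above both DMSO cultures and 0 below both, where 35.2% of all genes that passed the filter were above both. The 7 include ULK1 and WIPI1, which were below the filter, so the member count and the share do not cover like genes. With RPKM rescaled by edgeR's TMM factors, the median of all genes that passed moved to -0.11 and that of all 10 members to 0.44. In that scaling 2 members, NBR1 and MAP1LC3B, stayed past 1.4-fold and the filter.

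Tested across all genes, the siGSTO1 difference came close to the threshold for NBR1 and ULK1. edgeR's quasi-likelihood test gave 0 of 10 members an adjusted p under 0.05 (Benjamini-Hochberg over 14431 genes, of which 4.16% were called), with 3 at an unadjusted p under 0.05, against 14.3% of all genes. The log2 fold change of NBR1 was 0.98 ± 0.33 (SE) with an edgeR adjusted p of 0.0568. That of ULK1 was 1.41 ± 0.49 with an edgeR adjusted p of 0.0808, and that of MAP1LC3B 0.88 ± 0.39 with 0.234. DESeq2 also called 0, with 2 at an unadjusted p under 0.05. In a variant of the edgeR test with bias-adjusted deviances, added after the data had been seen, NBR1 and ULK1 were called, with edgeR adjusted p of 0.0405 and 0.0483. Without the filter on low counts, ULK1 alone was called, at an edgeR adjusted p of 0.0432. Over the 4 alternative edgeR settings, the adjusted p ran from 0.0405 to 0.0698 for NBR1 and from 0.0432 to 0.0725 for ULK1, so that the calls depended on the settings of the test. Each treatment had a single culture, which these tests assume to vary like the DMSO pair. The p-values measure only the spread between those DMSO cultures, which may be technical. In bulk RNA, a lower or higher level per cell cannot be told apart from a change in the share of cells.

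**Figure D2:**
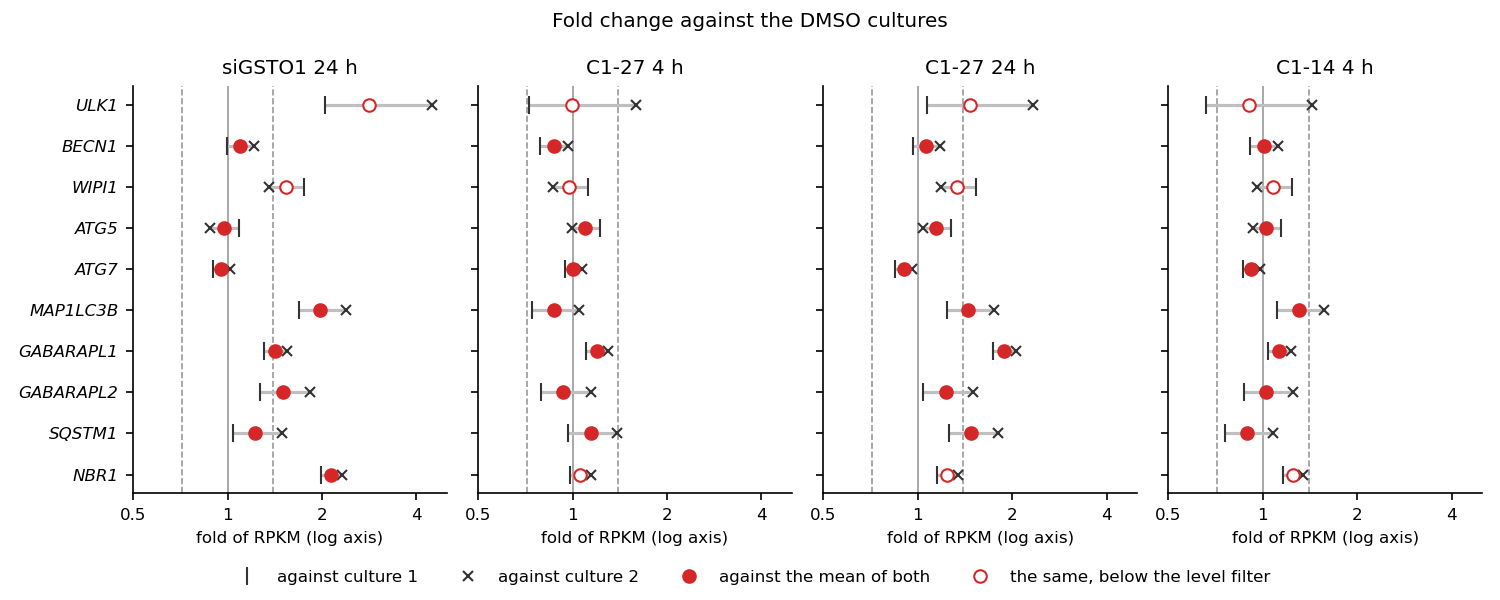
Fold change of RPKM (log axis) for each member in the 4 treatments, against DMSO culture 1 (bars), culture 2 (crosses) and the mean of both (red, open where the level filter was not passed). Dashed lines mark 1.4-fold in either direction. ULK1 (below the level filter), MAP1LC3B and NBR1 lie past the upper line against each culture after siGSTO1, and GABARAPL1 after C1-27 for 24 h.

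C1-27 for 24 h gave another order of members. Of 7 that passed the filter, 3 were at least 1.4-fold higher than DMSO and 0 were 1.4-fold lower, against 3.23% and 3.49% of 7918 genes. GABARAPL1 was 1.88-fold higher, SQSTM1 1.48-fold and MAP1LC3B 1.45-fold. GABARAPL1 was 1.74-fold and 2.05-fold above DMSO cultures 1 and 2 and was the only member past 1.4-fold against each. The share of all genes past it against each culture was again not computed. SQSTM1 was at 1.26-fold and 1.8-fold against the same cultures, and MAP1LC3B at 1.24-fold and 1.75-fold. Of the remaining members, ULK1 was at 1.47-fold, WIPI1 at 1.34-fold, NBR1 at 1.24-fold, GABARAPL2 at 1.23-fold, ATG5 at 1.14-fold, BECN1 at 1.06-fold and ATG7 at 0.903-fold. Above both DMSO cultures were 8 of 10 members, against 36.8% of all genes that passed, and ATG7 was below both. The 8 include ULK1, WIPI1 and NBR1, which were below the filter, so the member count and the share do not cover like genes. The median log2 fold change was 0.36 for all 10 members, whether they passed or not, and 0.030 for all genes that passed.

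The edgeR test called 0 of 10 members in that comparison (0.277% of all genes were called), with 2 at an unadjusted p under 0.05 against 3.74% of all genes, and DESeq2 called 0 with 0. SQSTM1 had a log2 fold change of 0.52 ± 0.24 (SE) with an edgeR p of 0.0311 before and 1.00 after adjustment. GABARAPL1 had 0.86 ± 0.40 with an edgeR p of 0.0319 before and 1.00 after adjustment. The variant with bias-adjusted deviances also called 0.

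At 4 h, both compounds left the members close to the DMSO pair. After C1-27 at 1 μM, 0 of 7 members that passed were 1.4-fold higher and 0 were 1.4-fold lower, where 0.457% and 2.22% of 7667 genes were. The largest fold change was that of GABARAPL1, at 1.19-fold, and the smallest that of BECN1, at 0.870-fold. The values of 8 of 10 members lay between those of the DMSO cultures, as did those of 59.5% of all genes that passed. After C1-14 at 10 μM, 0 of 7 members were 1.4-fold higher and 0 were 1.4-fold lower, where 3.71% and 1.01% of 7784 genes were. MAP1LC3B was at 1.30-fold, NBR1 at 1.25-fold and SQSTM1 at 0.889-fold. Of the 10 members, 6 lay between the DMSO cultures, against 51.2% of all genes that passed. For both compounds the 10 include ULK1, WIPI1 and NBR1, which were below the filter. In edgeR, 0 of 10 members were called with either compound at 4 h, where 0.0139% of all genes were called for C1-27 and 0.118% for C1-14. At an unadjusted p under 0.05 there were 0 members in edgeR and 0 in DESeq2 for both, and DESeq2 called 0. The compounds were given at different doses, so their values stand side by side without a comparison. With the spread of these cultures, the edgeR SE of the log2 fold change was 0.24 for SQSTM1 and 0.52 for ULK1 with C1-27 at 4 h. Changes of that size, and changes well above it, were not detectable. After siGSTO1, the log2 fold change of 0.98 ± 0.33 (SE) for NBR1 was not called in the main edgeR test.

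**Figure D3:**
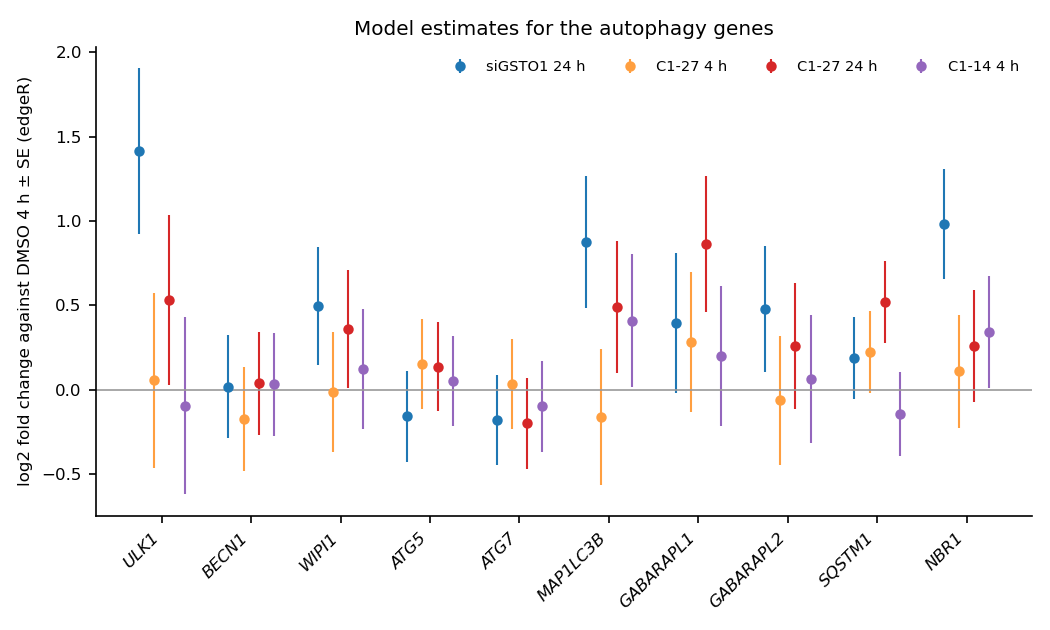
edgeR log2 fold change against DMSO for each member and treatment, with bars of 1 SE on either side, from a fit in which the DMSO pair gives the only spread. ULK1 and NBR1 after siGSTO1 lie farthest from 0, at 1.41 and 0.98.

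The times of C1-27 and both ways of targeting GSTO1 were also compared directly, each with 1 culture on either side. From 4 h to 24 h of C1-27, 2 of 7 members that passed were past 1.4-fold, both upward, against 6.77% of 7784 genes past it in either direction. They were MAP1LC3B at 1.66-fold and GABARAPL1 at 1.58-fold, and ATG7 was lower at 24 h, at 0.897-fold. The median log2 fold change was 0.39 for all 10 members and 0.048 for all genes that passed. ULK1, WIPI1 and NBR1 are among the 10 but were below the filter. edgeR called 0 of 10 members (0.104% of all genes), with 0 at an unadjusted p under 0.05, and DESeq2 gave 0 for both. Between siGSTO1 and C1-27, both at 24 h, 1 of 8 members that passed was past 1.4-fold, against 13.3% of 8192 genes in either direction. That member was NBR1, 1.72-fold higher after siGSTO1, which again passed the filter only through its siGSTO1 value. ULK1, below the filter, was 1.92-fold higher after siGSTO1, with an exact 95% interval of 1.55 to 2.39 that covers counting error only. GABARAPL1 and SQSTM1 were lower after siGSTO1 than after C1-27, at 0.754-fold and 0.828-fold. The edgeR test called 0 of 10 members (0.991% of all genes), with 0 at an unadjusted p under 0.05, and DESeq2 gave 0 for both. The edgeR adjusted p of NBR1 was 0.797, so the different orders of members after siGSTO1 and C1-27 were not shown to differ.

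The pattern of SQSTM1 over the 6 libraries was set against that of 7910 genes with a mean above 0.5 RPKM. Most alike by Pearson's r of log2 RPKM were TTC1 (0.994), UBOX5 (0.990), USP22 (0.985), KIAA1522 (0.980) and C11orf10 (0.977). These values describe 6 points that share the DMSO pair and the library depths. Of the members at that level, GABARAPL1 had an r of 0.871 with SQSTM1, higher than 98.2% of the genes, GABARAPL2 0.712, BECN1 0.529 and MAP1LC3B 0.527. ATG7 and ATG5 had r of 0.0776 and -0.00850.

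A further 90 genes of the pathway, in 9 roles, were read in the same way, and all 90 had a single row. The list was drawn up with earlier results of these data known. Its shares and medians beside those of all genes therefore describe the list and test nothing. After siGSTO1, 14 of 57 that passed the filter were at least 1.4-fold higher and 2 were 1.4-fold lower, against 10.5% and 6.48% of all genes. Their median lay at 0.20 on the log2 scale, where that of all genes lay at -0.00072. edgeR called 8 of 89 tested, 7 of them higher, and DESeq2 called 5. Of all 14431 genes edgeR called 4.16%, 433 of them higher and 168 lower. Of the 8 called, 5 were among the 18 signals to the pathway, 2 among 16 receptors and 1 among 9 conjugation genes. This split over the 9 roles likewise describes the list and tests nothing. The genes that rose in edgeR included 2 further cargo receptors. CALCOCO2 (NDP52), a receptor for ubiquitinated cargo like SQSTM1 and NBR1, was at 1.60 RPKM against 0.797 and 0.689 RPKM in DMSO (edgeR adjusted p 0.0137). BNIP3L (NIX), a receptor on mitochondria and below the filter, was at 0.394 RPKM against 0.150 and 0.117 RPKM (edgeR adjusted p 0.0219). DESeq2 called neither gene after siGSTO1. In the other treatments BNIP3L was at 2.20-fold after C1-27 for 24 h, 1.66-fold after C1-14 and 0.891-fold after C1-27 for 4 h. None of these was called by edgeR.

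The other 5 that rose are signals to the pathway. DDIT4, an inhibitor of the mTORC1 kinase, was at 9.70 RPKM against 0.887 and 0.546 RPKM in DMSO, a 13.5-fold difference (edgeR adjusted p 5.29e-12). SESN2, another inhibitor of mTORC1 signalling, was at 4.09-fold, and TRIB3, a stress-induced pseudokinase, at 3.07-fold. DEPTOR, which binds mTOR, was at 5.71-fold and TP53INP1, a p53 target, at 2.84-fold, both below the filter. Their edgeR adjusted p ran from 3.16e-07 for DEPTOR to 0.0232 for TP53INP1, which DESeq2 did not call. ATG12, the partner of ATG5 in the conjugate, was the 1 gene that fell, at 6.0 RPKM against 10.6 and 15.2 RPKM in DMSO (0.465-fold, edgeR adjusted p 3.80e-04), while ATG5 was at 0.973-fold.

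Within each role, the rule for naming took the genes with the highest and the lowest fold change, so that these values only describe the range. In the initiation complex, RB1CC1 was at 1.52-fold and ATG101 at 0.852-fold after siGSTO1, and RB1CC1 at 1.57-fold and ATG101 at 1.04-fold after C1-27 for 24 h. Around BECN1, the lipid kinase genes ranged from PIK3R4 at 0.930-fold to NRBF2 at 1.44-fold after siGSTO1, and from ATG14 at 1.06-fold to PIK3C3 at 1.36-fold after C1-27. Among the genes of membrane supply, VMP1 was at 0.707-fold and TMEM41B at 1.59-fold after siGSTO1, and WDR45B at 0.907-fold and TMEM41B at 1.46-fold after C1-27. Of the other ubiquitin-like genes GABARAP alone passed the filter, at 1.39-fold after siGSTO1 and 1.16-fold after C1-27. Its siGSTO1 value was 1.05-fold and 2.07-fold above DMSO cultures 1 and 2. At 4 h GABARAP was at 1.56-fold after C1-14 and 0.535-fold after C1-27. In conjugation the range ran from ATG12 to ATG4C at 1.24-fold after siGSTO1, and from ATG12 at 0.779-fold to ATG4C at 1.17-fold after C1-27. Receptors ran from TAX1BP1 at 0.842-fold to CALCOCO2 at 2.2-fold after siGSTO1, and from NCOA4 at 0.989-fold to CALCOCO2 at 1.25-fold after C1-27. Fusion genes ran from RAB7A at 0.954-fold to VAMP8 at 1.64-fold, and from SNAP29 at 1.03-fold to EPG5 at 1.17-fold. Lysosomal genes ran from LAMP1 at 0.785-fold to CTSD at 3.14-fold, and from LAMP1 at 0.944-fold to GLA at 1.57-fold. Signals ran from RPTOR at 0.828-fold to DDIT4 after siGSTO1, and from FOXO3 at 0.899-fold to DDIT4 at 2.31-fold after C1-27.

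After C1-27 for 24 h, 7 of 54 pathway genes that passed were at least 1.4-fold higher and 0 were 1.4-fold lower, against 3.23% and 3.49% of all genes. Their median lay at 0.18 on the log2 scale, where that of all genes lay at 0.030. edgeR called 0 of 89 (0.277% of all genes), with 7 at an unadjusted p under 0.05 against 3.74% of all genes, and DESeq2 called 0. The variant with bias-adjusted deviances called 1, TP53INP1. At 4 h, 1 gene was 1.4-fold higher and 2 were 1.4-fold lower of 53 after C1-27, against 0.457% and 2.22% of all genes. After C1-14, 3 were higher and 0 lower of 54, against 3.71% and 1.01%. edgeR called 0 of 89 at 4 h with either compound, with 0 and 1 at an unadjusted p under 0.05, and DESeq2 called 0.

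**Figure D4:**
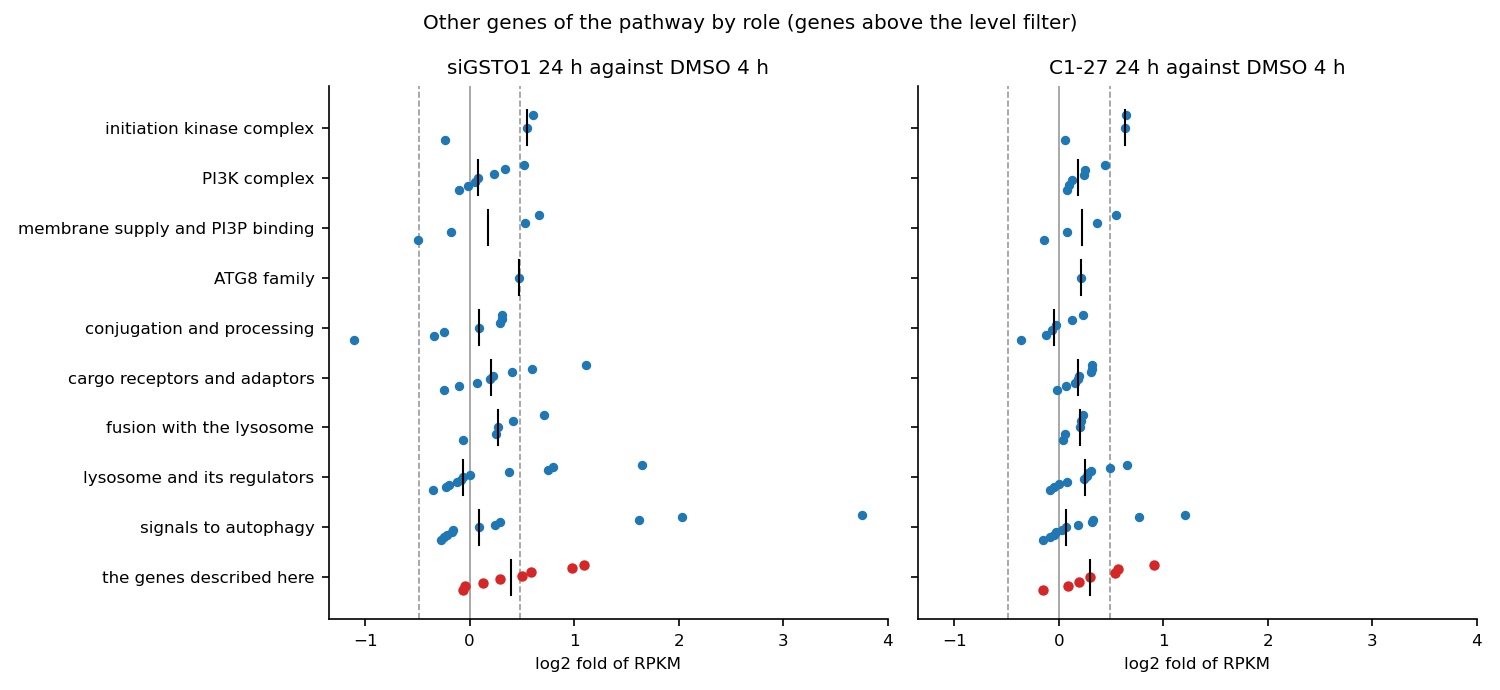
log2 fold change of RPKM for pathway genes that passed the level filter, by role (blue), and for the members that passed (red), after siGSTO1 and after C1-27 for 24 h. Each point is 1 gene, black strokes are medians and dashed lines mark 1.4-fold. DDIT4 lies at the far right in both, and ATG12 at the far left.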

How the data were processed

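Nascent RNA was measured by Bru-seq in 6 HCT116 libraries, 1 per culture and grouped by their labels. Deposited values are, by gene and by strand, the authors' estimated counts over exons and introns (not normalised, in part not whole), the signal (counts per bp of gene, used to recover the read totals) and RPKM. Per the labels, processing named CASAVA 1.8.2, Bowtie 0.12.8, TopHat 1.4.1 and bedtools 2.16.2 with hg19, without roles. The annotation is not given in the sources used here. Totals behind RPKM were 23388425 to 46017068 reads.

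Fold changes were treated RPKM over mean DMSO RPKM, without a pseudocount, for genes above 300 bp with a mean above 0.5 RPKM. Estimated counts were rounded and fitted with edgeR 4.0.16 (R 4.3.3, TMM, quasi-likelihood, 5 groups, 1 residual degree of freedom, at least 10 counts in at least 2 libraries, common dispersion 0.0381, Benjamini-Hochberg). The SE was derived from the log2 fold change and F. DESeq2 1.42.0 was an alternative, as were other scalings, filters, a pseudocount and leaving out each DMSO culture. Ratios of pooled counts have exact Clopper-Pearson intervals. Both methods were run on simulated counts with planted changes, as a check of the code only. The fold changes were simulated with sampling noise alone, so that run does not show how they perform at the spread of these cultures. Tables used Python 3.11.15 with pandas 2.3.3, numpy 2.4.6 and scipy 1.17.1, and plots matplotlib 3.10.9. Promoter sequences are RefSeq's, in GRCh38.p14, and no position was converted between builds.

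The members and lists were chosen with earlier results of these data known. All 10 members were named. Pathway genes were named if edgeR called them against DMSO, or if they had the highest or lowest fold change of their role after siGSTO1 or C1-27 for 24 h, besides the 5 genes most like SQSTM1. Antisense rows served only for the antisense shares, and ambiguous rows were left out.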

Additional observations from a re-analysis of the deposited data

How the results depend on the processing

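The count of members past 1.4-fold moved with the control culture, the scaling and the level filter. After siGSTO1 it was 4 as reported, 2 to 5 when either DMSO culture was left out (2 without culture 2), 2 after TMM scaling, 1 after scaling with DESeq2 size factors and 1 with the filter at 1 RPKM. After C1-27 for 24 h it was 3 as reported, 1 to 4 with either DMSO culture left out (1 without culture 2) and 1 with the filter at 1 RPKM. After C1-14 it was 0, and 0 to 1 with either DMSO culture left out, the 1 being MAP1LC3B without culture 1. Between the times of C1-27 it was 2, and 0 with the filter at 1 RPKM. Between siGSTO1 and C1-27 at 24 h it was 1, against 2 with DESeq2 size factors, 2 without a level filter and 0 with the filter at 1 RPKM. In the last scaling the further member was GABARAPL1, lower after siGSTO1. The filter at 1 RPKM leaves fewer members by construction, and no filter leaves more. With DESeq2 size factors NBR1 was still at 1.93-fold after siGSTO1 and left the count at the level filter of 0.5 RPKM. The cause of the other shifts was not tested.

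The count of members called by edgeR after siGSTO1 was 0 as reported, 1 without the filter on low counts (ULK1) and 2 with bias-adjusted deviances (NBR1 and ULK1), the latter chosen after seeing the data. It was 0 with robust estimation, with DESeq2-type size factors and in DESeq2, where the smallest adjusted p of the edgeR alternatives was 0.0508 for NBR1. In the other 5 comparisons it was 0 under all 6 settings. Of 120 single fold changes recomputed with both DMSO cultures under another scaling or a pseudocount, 118 moved by less than the spread of the DMSO pair, 0 changed sign while past 1.4-fold, and ATG7 with DESeq2 size factors (0.862-fold after siGSTO1) and NBR1 with a pseudocount of 0.1 RPKM (1.87-fold after siGSTO1) moved by more. Leaving out a DMSO culture leaves no residual degree of freedom, so the tests were not rerun without one. No paired analysis was possible because the treated groups hold 1 culture each. Depth limits ULK1 most, at 63 to 182 counts per library.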
